A study of Mus musculus with 28 samples.

Results

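The comparison described here is the change over time in skeletal muscle of mice that received vehicle and no cytokine: 5 arrays of muscle taken 8 h after injection against 5 arrays taken 2 h after it. The 10 arrays were chosen by their sample titles, out of 28 in the series, and the comparison was read across all 17831 probe sets. The study gave the inflammatory cytokine interleukin 1b (IL-1b), or its vehicle, into the fluid-filled ventricles of the brain and collected muscle 2, 4 or 8 h afterwards. The other groups are vehicle at 4 h (5 arrays) and IL-1b at 2 h, 4 h and 8 h (5, 5 and 3 arrays). Both groups compared here share the injection into the brain and differ in the time after it. The sources used here do not give the strain, sex, age or genotype of the mice, the muscle taken, what the vehicle was made of, the time of day or how the animals were fed. No array of uninjected mice or of muscle at 0 h was analysed here, so recovery from the injection, the passing of the day and any change in feeding cannot be told apart. Whether each array came from its own mouse is not stated in the labels, so a p-value here speaks of the spread between the samples, which may be technical.

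Each value is on a log2 scale and centred per probe set, so that 0 is the median of the 28 arrays. Differences between groups can be read from such values and levels cannot, so the presence of muscle or of other cell types could not be checked from the level of their markers. In whole muscle, fewer cells of a type and less RNA per cell cannot be told apart. Along the first principal component (34.7% of the variance) 3 arrays stood apart. These arrays, replicate 7 of vehicle at 2 h, replicate 1 of vehicle at 8 h and replicate 22 of IL-1b at 8 h, also had the widest spread of values, with an SD between 0.2978 and 0.3302 where no other array exceeded 0.2229. Each group compared here holds 1 of them, and values without these 3 arrays stand beside the leading results. One further array went against its label. On the array labelled IL-1b 2 h replicate 2, the adhesion molecule genes Selp and Vcam1 were at -0.29 and -0.04, within or near the vehicle values at 2 h, against 2.87 to 3.01 and 1.79 to 1.93 on the other 4 IL-1b arrays of that time. Its mean over NF-kB and cytokine response genes was 0.0151, against 0.497 to 0.611 on those arrays. It takes no place in the vehicle groups, but it enters the shared spread and every IL-1b change from 2 h to 8 h. The leading changes in IL-1b and differences between changes are given without it too. The vehicle calls were not refitted without it, apart from the fits to vehicle arrays alone.

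Most cells, muscle fibres included, run a circadian clock built as a loop of transcription factors. The activators BMAL1 (gene Arntl), CLOCK and NPAS2 bind E-box sequences and drive the genes of their own inhibitors, the Period and Cryptochrome proteins, and of the repressors REV-ERB alpha and beta (Nr1d1, Nr1d2), which bind RORE sequences and shut down Arntl, Npas2 and Nfil3. The output factors DBP, HLF and TEF activate genes through D-box sequences and the repressor NFIL3 binds the same sequences. In muscle the clock is known to time the switch between glucose and fat as fuel, and fasting moves the same fuel genes through fatty acid receptors.

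Between 2 h and 8 h, the clock activators Arntl and Npas2 and the repressor Nfil3 fell in vehicle muscle, and the inhibitor genes Per3, Cry2 and Nr1d2 and the output genes Dbp, Hlf and Tef rose. Genes of fatty acid use rose with them (Acot2, Ucp3, Cpt1a and Pdk4). The largest fall was that of Slc25a25, a mitochondrial ATP-Mg/phosphate carrier, and other genes that fell were the glycogen-targeting phosphatase subunit Ppp1r3c, the cell cycle inhibitor Cdkn1a, the early response genes Nr4a2 and Klf4 and the insulin signalling gene Irs1. In all, 152 probe sets passed limma's moderated test at a Benjamini-Hochberg adjusted p of 0.01, which is 0.852% of those tested. Of these, 60 were higher at 8 h (0.336%) and 92 were lower (0.516%), and the median size of the change was 0.5 on the log2 scale. The changes were small for most of them, with 17 at 1.75-fold or more (0.0953%), 9 higher (0.0505%) and 8 lower (0.0449%). The 2 groups did not overlap for 137 of the 152, while over all probe sets 435 (2.44%) had groups that did not overlap. Without the 3 arrays of widest spread 189 passed, 81 higher and 108 lower. The count rested on the shared estimate of spread from all 28 arrays, and a fit to the 10 arrays alone called 19.

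Of 18 core clock genes listed, 14 had a probe set with a single gene symbol. Of those, 3 were higher at 8 h (Per3, Cry2 and Nr1d2), 2 were lower (Arntl and Npas2) and 9 did not pass. The called share was 35.7%, against 0.852% of all probe sets. The list's median difference was 0.058, against -0.0033 over all probe sets, and its called members moved both ways. Per2 and Nr1d1 had no such probe set and were not analysed here.

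Arntl encodes BMAL1, the activator that every arm of the loop needs. Its centred values at 2 h were 0.91, 0.79, 0.47, 0.92 and 0.68 on replicates 1, 5, 7, 9 and 11, and at 8 h they were -1.07, -0.39, -0.67, -0.26 and -0.93 on replicates 1, 9, 13, 17 and 21. All 2 h arrays lay above 0 and all 8 h arrays below it. Arntl fell by 1.42 on the log2 scale (SE 0.16, limma adjusted p = 4.31e-06, with 5 arrays in each group), so that it was 2.68-fold lower at 8 h. Npas2, which can take the place of CLOCK as the partner of BMAL1, was at 0.86, 0.79, 0.25, 0.83 and 0.34 at 2 h and at -0.49, -0.54, -0.51, -0.28 and -0.48 at 8 h, in the same replicate order. It fell by 1.07 (SE 0.12, limma adjusted p = 4.83e-06). The 8 h values of Npas2 lay close together, while at 2 h replicates 7 and 11 lay well under the other 3 arrays. Clock itself differed by -0.47 ± 0.14 and did not pass (limma adjusted p = 0.0799), and its groups overlapped.

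On the repressing side of the loop, Per3, a Period family gene, was at -0.54, -0.45, -0.01, -0.61 and -0.31 at 2 h and at 0.70, 0.72, 0.69, 0.46 and 0.88 at 8 h. It rose by 1.07 ± 0.12 (limma adjusted p = 3.36e-06), 2.1-fold, and the groups did not overlap. Cry2, a cryptochrome that inhibits BMAL1 and its partner, rose by 0.68 ± 0.09 (limma adjusted p = 6.51e-05), and a second probe set of the gene rose by 0.73 ± 0.09. Nr1d2 (REV-ERB beta) rose by 0.41 ± 0.08 (limma adjusted p = 0.00322). This call was lost without vehicle 2 h replicate 1, 7 or 9 or 8 h replicate 21 (0.35 to 0.46 when single arrays were left out) and without the 3 widest arrays (0.36). The other repressors behaved less plainly. Cry1 lay between 0.18 and 0.37 on the 2 h arrays and between -0.18 and 0.04 on the 8 h arrays, so that the groups did not overlap, yet its difference of -0.33 did not pass (limma adjusted p = 0.0303). Per1, the Period gene that glucocorticoids and cAMP induce directly, differed by 0.10 ± 0.15 and its groups overlapped. The receptor Rora differed by 0.15 ± 0.10 and the kinase Csnk1d, which marks Period proteins for decay, by -0.03 ± 0.05, and neither passed.

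The clock's output factors showed the same opposition. Dbp, an activator at D-boxes with a strong daily rhythm, was at -1.20, -0.79, -0.27, -1.33 and -0.17 at 2 h and at 0.90, 0.38, 0.59, 0.71 and 0.92 at 8 h. It rose by 1.46 ± 0.19 (limma adjusted p = 3.39e-05), 2.74-fold, with no overlap between the groups. Dbp varied more at 2 h (SD 0.53) than at 8 h (SD 0.23), and its call was lost in the fit to the vehicle 2 h and 8 h arrays alone. That fit also lost the calls of Cry2, Nr1d2 and Tef and kept those of Arntl, Npas2, Per3, Hlf and Nfil3. The Dbp relatives Hlf and Tef rose by 0.68 ± 0.08 (limma adjusted p = 8.41e-06) and 0.39 ± 0.06 (limma adjusted p = 0.00103). Nfil3, which opposes them at D-boxes, was at 0.65, 0.30, 0.31, 0.52 and -0.18 at 2 h and at -1.37, -1.47, -0.80, -1.13 and -1.29 at 8 h. Nfil3 fell by 1.53 (SE 0.15, limma adjusted p = 7.45e-07), 2.89-fold, which was among the strongest calls of the comparison.

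Of 20 measured clock output and modulator genes, 5 were higher, 2 were lower and 13 did not pass, with a median of 0.204. The called share was 35.0%, against 0.852% of all probe sets. Beside Dbp, Hlf and Tef, the risers were Tspan4, a membrane tetraspanin (0.66 ± 0.10), and Bhlhe41 (DEC2), a repressor at E-boxes (0.64 ± 0.12, limma adjusted p = 0.00411). Beside Nfil3, Myod1, the myogenic factor whose gene BMAL1 and CLOCK are known to drive, fell by 0.55 (SE 0.12, limma adjusted p = 0.0094). The calls of Bhlhe41 and Myod1 were near the threshold. Both, and that of Tspan4, were lost in the fit to the vehicle 2 h and 8 h arrays alone. Bhlhe41 lost its call without 2 h replicate 1, 5 or 9 or 8 h replicate 1, 17 or 21 (0.57 to 0.71 over all single leave-outs). Myod1 lost its call without 2 h replicate 1 or 7 or 8 h replicate 9, 13, 17 or 21 (-0.62 to -0.44), nor without the 3 widest arrays (-0.56). Bhlhe40, the close relative of Bhlhe41, differed by 0.40 ± 0.16 and did not pass. Without the 3 widest arrays, 2 core clock genes were higher and 2 lower, and 5 output genes were higher and 1 lower. Dbp then differed by 1.53, Per3 by 1.16, Arntl by -1.39 and Nfil3 by -1.50.

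**Figure D1:**
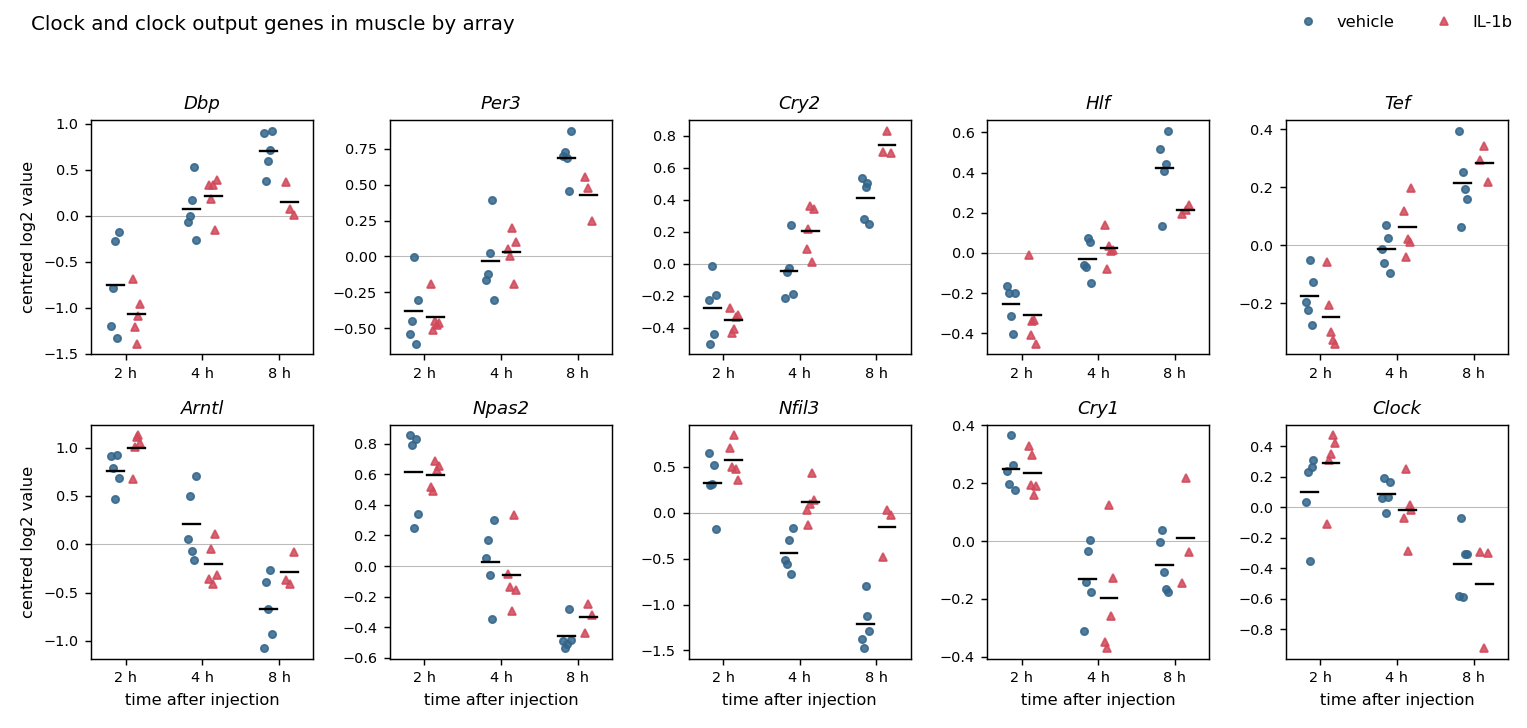
Centred log2 values of clock genes by time after injection, 1 point per array, for vehicle (circles) and IL-1b (triangles), with a bar at each group's mean. In vehicle muscle Arntl passes from 0.47 to 0.92 at 2 h to between -1.07 and -0.26 at 8 h, while Dbp passes from -1.33 to -0.17 up to between 0.38 and 0.92.

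The vehicle mean at 4 h lay between those at 2 h and 8 h for Arntl, Npas2, Nfil3, Dbp, Per3, Cry2, Nr1d2, Hlf and Tef. Other clock genes took another course. Clock and Bhlhe41 had hardly moved by 4 h (each -0.01 against 2 h), and Cry1 was at -0.38 against 2 h and moved by 0.05 from there. Arntl was at 0.05, 0.50, -0.07, -0.16 and 0.70 on 4 h replicates 1, 3, 5, 7 and 17, and Dbp at -0.07, -0.01, 0.17, 0.53 and -0.26. The 2 genes took opposite orders at the ends of the group, with replicate 7 lowest in Arntl and highest in Dbp and replicate 17 the reverse. Replicate 7 was also the lowest 4 h array in Npas2 (-0.35) and Nfil3 (-0.67) and the highest in Per3 (0.40) and Cry2 (0.24), and replicate 17 was the highest in Npas2 (0.30) and Nfil3 (-0.17) and the lowest in Per3 (-0.30). At 2 h, replicates 7 and 11 were the nearest to the 8 h values in Arntl, Npas2, Dbp, Per3 and Cry2, but not in other clock genes. In Hlf replicate 7 (-0.32) was second farthest from them, in Nr1d2 it was at -0.41, near the farthest array, and in Nfil3 replicate 5 (0.30) was as near as replicate 7 (0.31). These orders are descriptions picked after the values were seen, and replicate 7 at 2 h is 1 of the arrays of widest spread. Of the 152 called probe sets, 134 had a 4 h mean between the means at 2 h and 8 h, against 30.4% of all probe sets, but the calls were made on the same 2 h and 8 h arrays, so this share is no independent result.

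The promoters of several of these genes hold the short sequences at which clock proteins are known to bind, and 5 windows of called clock genes that hold them are shown, 1 or 2 for each of 4 genes, so that the letters can be seen in place. The 4 genes and the sequence marked in each were picked for display. Any windows of these genes without that match, and the windows of the other called clock genes, are not shown. Sequences are RefSeq windows from 250 bases before to 50 bases after a gene's start in GRCm38.p6, read in the direction of the gene. Capitals mark the matched letters: TTATGNAA for a D-box, CACGTG for an E-box and TAGGTCA or TGGGTCA, on either strand, for a RORE. The window of Per3 (chr4:151044616-151044915, minus strand) holds 2 D-box matches, each of 2 windows of Tef (chr15:81802423-81802722 and chr15:81811164-81811463, plus strand) holds an E-box, and those of Arntl (chr7:113207261-113207560, plus strand) and Nfil3 (chr13:52980990-52981289, minus strand) hold a RORE, that of Nfil3 on the opposite strand.
Per3: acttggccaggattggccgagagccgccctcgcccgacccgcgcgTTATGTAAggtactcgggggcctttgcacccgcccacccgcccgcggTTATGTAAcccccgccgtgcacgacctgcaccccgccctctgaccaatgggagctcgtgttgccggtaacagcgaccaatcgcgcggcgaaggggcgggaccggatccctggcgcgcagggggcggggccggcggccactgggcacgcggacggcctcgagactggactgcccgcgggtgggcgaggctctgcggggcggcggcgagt
Tef, first window: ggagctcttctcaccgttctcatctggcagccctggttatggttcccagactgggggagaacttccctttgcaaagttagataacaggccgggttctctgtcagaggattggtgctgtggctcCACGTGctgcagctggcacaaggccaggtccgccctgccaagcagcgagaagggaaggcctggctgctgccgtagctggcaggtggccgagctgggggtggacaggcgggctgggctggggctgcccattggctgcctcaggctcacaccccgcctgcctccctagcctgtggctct
Tef, second window: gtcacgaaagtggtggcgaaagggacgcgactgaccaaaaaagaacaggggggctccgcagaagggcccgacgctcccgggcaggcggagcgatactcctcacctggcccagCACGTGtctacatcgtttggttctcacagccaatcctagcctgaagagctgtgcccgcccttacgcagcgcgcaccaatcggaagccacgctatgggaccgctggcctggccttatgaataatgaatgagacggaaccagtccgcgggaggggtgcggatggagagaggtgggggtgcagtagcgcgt
Arntl: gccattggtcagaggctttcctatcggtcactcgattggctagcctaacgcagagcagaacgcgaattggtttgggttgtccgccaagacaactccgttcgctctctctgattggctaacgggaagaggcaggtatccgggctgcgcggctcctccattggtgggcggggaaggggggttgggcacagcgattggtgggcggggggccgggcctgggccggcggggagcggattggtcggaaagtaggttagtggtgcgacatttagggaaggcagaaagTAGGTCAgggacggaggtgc
Nfil3: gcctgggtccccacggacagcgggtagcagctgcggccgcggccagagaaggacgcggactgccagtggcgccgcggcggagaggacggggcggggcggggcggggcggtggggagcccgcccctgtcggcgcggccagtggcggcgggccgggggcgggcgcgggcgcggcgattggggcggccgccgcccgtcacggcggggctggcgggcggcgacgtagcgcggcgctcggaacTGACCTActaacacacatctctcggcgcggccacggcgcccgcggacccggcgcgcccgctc
Such matches are common. Over both strands, 10 of 63 promoter windows of genes that rose held the E-box letters (15.9%), as did 10 of 102 windows of genes that fell (9.8%), 8.63% of the 15246 windows of measured genes and 7.15% of all 32851 windows. The RORE letters stood in 1 riser window (1.59%), 8 windows of genes that fell (7.84%), 5.55% of measured and 6.45% of all, and the D-box letters in 2 (3.17%), 0, 2.84% and 3.38%. The cAMP response element TGACGTCA stood in 1 riser window (1.59%), 5 windows of genes that fell (4.9%), 2.34% of measured and 1.79% of all. A gene can have several windows that overlap, and a match is a description of the letters, not a binding site.

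Genes of fuel use made up the next group. Of 25 measured genes of fatty acid use and fasting, 4 were higher at 8 h, 0 were lower and 21 did not pass. The called share was 16.0%, against 0.852% of all probe sets, and the median difference was 0.135. Acot2, a mitochondrial thioesterase that frees fatty acids from coenzyme A, was at -0.59, -0.35, -0.77, -0.81 and -0.40 at 2 h and at 0.48, 0.55, 0.49, 0.78 and 0.43 at 8 h. It rose by 1.13 ± 0.16 (limma adjusted p = 9.02e-05), 2.18-fold, and the groups lay well apart. Cpt1a, a carnitine palmitoyltransferase that passes long-chain fatty acids towards the mitochondrion and is best known as the liver form, was at -0.08, -0.18, -0.28, -0.39 and -0.39 at 2 h and at 0.39, 0.48, 0.48, 0.64 and 0.59 at 8 h. It rose by 0.78 ± 0.09 (limma adjusted p = 4.31e-06), with no overlap. Without the 3 widest arrays these genes differed by 1.10 and 0.81, and 7 genes of the list were higher and 0 lower.

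Ucp3, a mitochondrial carrier of muscle that rises in fasting, was at -0.41, -0.82, -0.68, -1.37 and -1.17 at 2 h and at -0.07, -0.39, 0.44, 0.23 and -0.11 at 8 h. It rose by 0.91 ± 0.17 (limma adjusted p = 0.00243), and by 0.98 without the 3 widest arrays. The closest arrays of the 2 groups, at -0.41 and -0.39, nearly met. Pdk4, the kinase that shuts pyruvate dehydrogenase and so spares glucose, rose by 0.55 ± 0.11 (limma adjusted p = 0.00627). Both genes had reached their 8 h value by 4 h, with differences of 1.02 for Ucp3 and 0.58 for Pdk4 at 4 h against 2 h and of -0.12 and -0.03 at 8 h against 4 h. Acot2 and Cpt1a moved in both steps, by 0.73 and 0.39 for Acot2 and by 0.53 and 0.25 for Cpt1a. The Ucp3 call was lost without 2 h replicate 9, 8 h replicate 13 or 8 h replicate 17 (0.79 to 1.03 over all single leave-outs). That of Pdk4 was lost without 2 h replicates 1, 9 or 11 or 8 h replicates 13, 17 or 21 (0.48 to 0.61). Adipocyte markers, whose genes share fat metabolism with this group, had 0 of 13 members called and a median of -0.248. Their mean was 0.896 on vehicle 2 h replicate 9, between -0.143 and 0.0653 on the other 2 h arrays and between -0.227 and 0.227 at 8 h. Without that replicate Acot2 differed by 1.07, Cpt1a by 0.75, Ucp3 by 0.79 and Pdk4 by 0.51, and the part of these markers in the results on fuel genes was not tested. With a trended and robust spread Pdk4 did not pass (limma adjusted p = 0.0129).

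Slc25a25 had the largest change in vehicle of any gene named here. This carrier moves adenine nucleotides into mitochondria and is known to respond to calcium and to cAMP. Its centred values were 0.53, 0.08, 0.06, 0.11 and -0.15 at 2 h and -1.50, -1.87, -1.41, -1.92 and -1.58 at 8 h. The gap between the groups was over 1 log2 unit. It fell by 1.78 (SE 0.20, limma adjusted p = 3.59e-06), 3.44-fold, in steps of -0.92 to 4 h and -0.86 from there. Without the 3 widest arrays the difference was -1.84. The call was lost with a trended and robust estimate of spread (limma adjusted p = 0.328).

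Among 25 genes of glycogen and glucose use, 1 was higher (Pdk4), 1 was lower (Ppp1r3c) and 23 did not pass. The called share was 8.0%, against 0.852% of all probe sets. Ppp1r3c encodes PTG, which brings protein phosphatase to glycogen and favours its synthesis. It was at -0.16, -0.33, -0.28, -0.00 and -0.52 at 2 h and at -1.72, -1.93, -1.25, -1.18 and -1.88 at 8 h. Ppp1r3c fell by 1.33 (SE 0.14, limma adjusted p = 3.36e-06), 2.52-fold, with a wide gap between the groups. The change came late, with a difference of -0.14 at 4 h against 2 h and of -1.19 at 8 h against 4 h. It was -1.31 without the 3 widest arrays, and the call was lost with a trended and robust spread (limma adjusted p = 0.0302).

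Insulin, IGF1 and myostatin signalling had 0 of 22 measured members higher, 4 lower and 18 not passing, with a median of -0.089. The called share was 18.2%, against 0.852% of all probe sets. The list mean lay between 0.0266 and 0.146 on the 2 h arrays and between -0.0767 and -0.0206 on the 8 h arrays. The 4 members called on these same arrays enter that mean, so its separation is no independent result. The members that fell do not all push the same way. Irs1, the docking protein through which the insulin receptor signals, fell by 0.72 (SE 0.15, limma adjusted p = 0.00817) and Grb10, an adaptor that restrains that receptor, by 0.40 (SE 0.08, limma adjusted p = 0.00885). Igfbp3, a binding protein that holds IGF1, fell by 0.52 (SE 0.09, limma adjusted p = 0.00145), and Smad3, a mediator of TGF-beta and myostatin signals, fell by 0.49 (SE 0.10, limma adjusted p = 0.00627). Their groups did not overlap, but 3 of these calls depended on single arrays. Irs1 lost its call without 2 h replicate 1, 5 or 7 or 8 h replicate 9, 13 or 17 (-0.81 to -0.62) or without the 3 widest arrays (-0.72). Smad3 lost its call without 2 h replicate 1, 5 or 7 or 8 h replicate 9, 13, 17 or 21 (-0.55 to -0.42), and Grb10 passed with any single array left out only when that array was vehicle 2 h replicate 7 (-0.47 to -0.35). With a trended and robust spread, Smad3 and Grb10 did not pass (limma adjusted p = 0.0129 and 0.0243). Igf1 and Mstn themselves differed by -0.18 ± 0.18 and -0.07 ± 0.15, and neither passed.

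**Figure D2:**
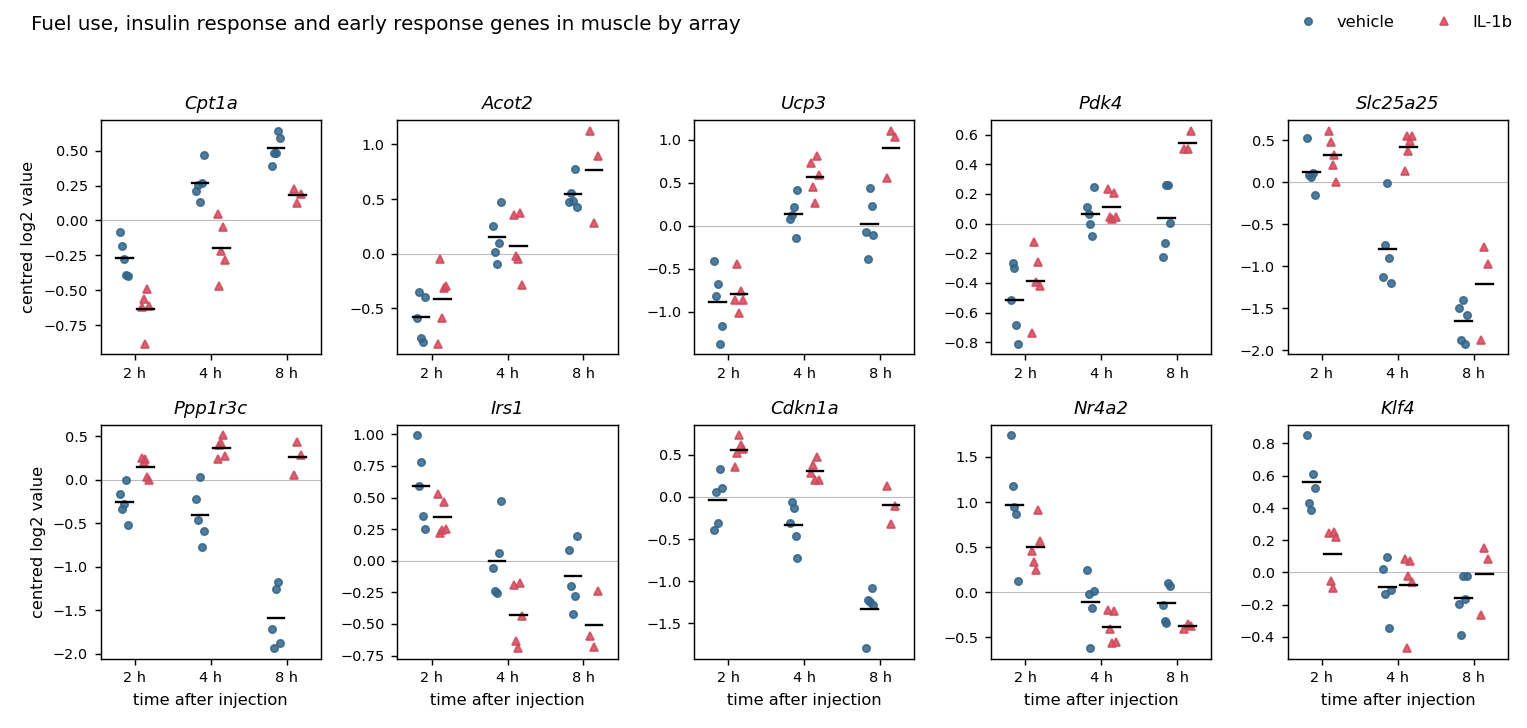
Centred log2 values of 10 genes of fuel use, insulin signalling and early response, 1 point per array, by time after injection, for vehicle (circles) and IL-1b (triangles), with a bar at each group's mean. In vehicle muscle Cpt1a and Acot2 are separated between 2 h and 8 h with no shared values, Slc25a25 falls in both steps and Ppp1r3c falls after 4 h to between -1.93 and -1.18.

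The 2 early response genes that were called were higher at 2 h than at 8 h. Of 27 measured immediate early genes, 0 were higher at 8 h, 2 were lower and 25 did not pass, with a median of -0.099. The called share was 7.41%, against 0.852% of all probe sets. Nr4a2, an orphan nuclear receptor that exercise and adrenergic signals induce in muscle, was at 1.74, 1.18, 0.95, 0.87 and 0.13 at 2 h and at -0.14, -0.32, -0.34, 0.10 and 0.07 at 8 h. It fell by 1.10 (SE 0.19, limma adjusted p = 0.00162), and its spread at 2 h was the wider one, with replicate 11 next to the 8 h values. Klf4, a zinc finger factor, fell by 0.72 (SE 0.11, limma adjusted p = 0.000572). Both falls lay before 4 h: Nr4a2 differed by -1.08 at 4 h against 2 h and by -0.01 from there, and Klf4 by -0.65 and -0.06. Fos differed by -0.31 ± 0.23 and Egr1 by 0.10 ± 0.17, and neither passed. Pim1, a kinase gene induced by cytokines through STAT3, fell by 0.87 (SE 0.13, limma adjusted p = 0.000297) and was the 1 called member of 22 STAT3 and acute phase genes.

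Cdkn1a encodes p21, which stops the cell cycle and is induced by p53, glucocorticoids and muscle stress. It was at -0.39, 0.06, -0.31, 0.34 and 0.10 at 2 h and at -1.80, -1.22, -1.24, -1.08 and -1.28 at 8 h. Cdkn1a fell by 1.28 (SE 0.14, limma adjusted p = 3.36e-06), 2.44-fold, and no 8 h array came near the 2 h arrays. The difference was -1.24 without the 3 widest arrays. Gadd45b, a stress-induced gene of the same list of 20, moved the other way. It rose by 1.03 ± 0.17 (limma adjusted p = 0.00116) from between -1.52 and -0.19 at 2 h to between 0.05 and 0.34 at 8 h, mostly by 4 h (0.88). The other 18 p53 and cell cycle arrest genes did not pass. The called share was 10.0%, against 0.852% of all probe sets.

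Glucocorticoid hormones rise daily and with stress, and their muscle targets were followed as a list of 26 measured genes. Of these, 1 was higher (Pdk4), 1 was lower (Cdkn1a) and 24 did not pass. The called share was 7.69%, against 0.852% of all probe sets. The median was -0.222 and 6 of 26 had a positive difference, against 8664 of all 17831 probe sets. The list mean lay between -0.412 and -0.0641 at 2 h and between -0.754 and -0.234 at 8 h, so the groups overlapped. Fkbp5, whose product binds and restrains the glucocorticoid receptor, was at -0.73, -0.48, -0.31, -0.00 and 0.03 at 2 h and at -1.29, -1.18, -0.29, -0.81 and -1.57 at 8 h. Its difference of -0.73 ± 0.18 did not pass (limma adjusted p = 0.0277), and replicate 13 at 8 h stood among the 2 h arrays. The metallothionein Mt2 differed by -0.76 ± 0.23 without passing (limma adjusted p = 0.0834), and by -0.46 without the 3 widest arrays. Ddit4, a brake on mTORC1, differed by -0.90 ± 0.40 with a spread from -2.26 to -0.67 at 8 h and did not pass. Tsc22d3, Sgk1, Klf15 and Mt1 did not pass either, and the sign of Klf15 (-0.01) turned when single arrays were left out.

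For lists of this size, a count of 0 or 1 is too small to set against the 0.852% of all probe sets that passed. Such a count is no result about the list. That holds for the genes of muscle breakdown, where of 15 measured ubiquitin ligase and FoxO atrophy genes 0 were called, with a median of 0.025. The ligase Fbxo32 (atrogin-1) differed by 0.15 ± 0.14, and its values lay between -0.66 and -0.03 at 2 h and between -0.59 and 0.17 at 8 h. Foxo1 and Foxo3, the factors that drive it, differed by -0.23 ± 0.09 and -0.09 ± 0.09. No member was called among 27 proteasome subunits (median -0.055), 25 autophagy and lysosome genes (0.021), 29 genes of the respiratory chain and ATP synthase (-0.040), 29 sarcomere and fibre type genes (0.0039) or 18 genes of denervation and synapse (0.032). Cell growth and ribosome biogenesis genes (23 measured) and hypoxia genes (19 measured) also had 0 called.

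Single members of other lists passed, where 0.852% of all probe sets did. Of 21 mTORC1 pathway genes, Ddit4l, a muscle relative of Ddit4 that also brakes mTORC1, fell by 0.78 (SE 0.14, limma adjusted p = 0.00207). Of 27 amino acid and polyamine genes, Slc38a2 (SNAT2), a transporter of neutral amino acids such as glutamine, fell by 0.79 (SE 0.14, limma adjusted p = 0.00259), and Slc43a1, which carries branched-chain amino acids, rose by 0.61 ± 0.13 (limma adjusted p = 0.00857). Slc38a2 lost its call without 2 h replicate 1 or 8 h replicate 21 (-0.84 to -0.69 over all single leave-outs). Of the single arrays left out in turn, Slc43a1 passed only without vehicle 2 h replicate 11 or 8 h replicate 9 (0.51 to 0.69), and its groups overlapped. It also did not pass without the 3 widest arrays (0.65) or with a trended and robust spread (limma adjusted p = 0.0343). Of 23 lipid and sterol synthesis genes, the glycerolipid enzyme Gpam rose by 0.45 ± 0.06 (limma adjusted p = 0.000137) and the sterol enzyme Sqle fell by 0.55 (SE 0.11, limma adjusted p = 0.00647), while the median was -0.203. Sqle lost its call without 2 h replicate 1 or 9 or any single array at 8 h (-0.60 to -0.48), without the 3 widest arrays (-0.56) or with a trended and robust spread (limma adjusted p = 0.0216). The lipid synthesis mean was 0.653 on vehicle 2 h replicate 9, the array with the high adipocyte markers, and between -0.0264 and 0.131 on the other 2 h arrays, and the part of those markers in it was not tested.

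In the stress lists, Creld2, an endoplasmic reticulum stress gene, fell by 0.43 (SE 0.07, limma adjusted p = 0.00108) as the 1 called of 25, and the zinc exporter gene Slc30a1 rose by 0.51 ± 0.08 (limma adjusted p = 0.000593) as the 1 called of 20 metal and oxidative stress genes. Heat shock chaperones had 0 of 21 called by the probe set used for the list. A second probe set of Dnaja1, an HSP70 partner, passed (-0.47 ± 0.09, limma adjusted p = 0.00492) where the first did not (-0.40 ± 0.14). Among 24 muscle regulatory and satellite cell genes, Myod1 and the satellite cell proteoglycan Sdc4 (-0.58 ± 0.12, limma adjusted p = 0.00731) fell and 22 did not pass. The called share was 8.33%, against 0.852% of all probe sets. Sdc4 lost its call without 2 h replicate 1, 7 or 9 or 8 h replicate 9, 13, 17 or 21 (-0.62 to -0.54).

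**Figure D3:**
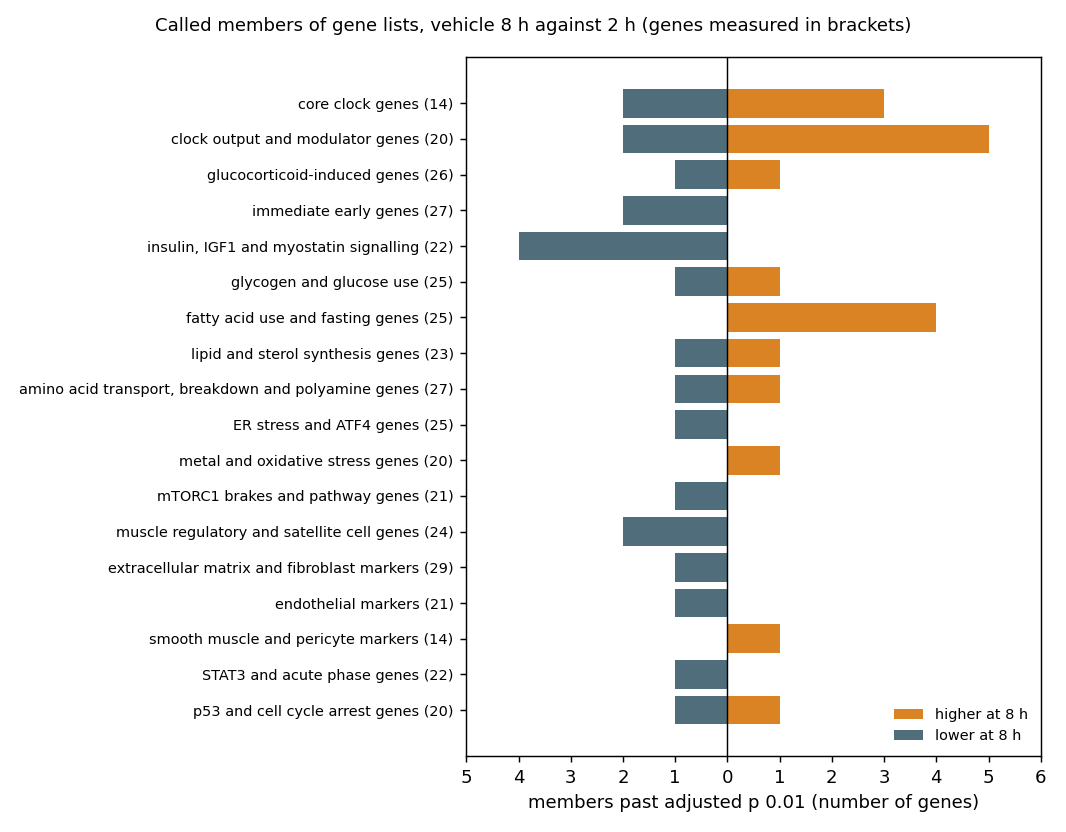
Number of called genes higher (right) and lower (left) at 8 h in vehicle muscle for the gene lists with at least 1 called member, with the number of measured genes in brackets. Clock output genes have 5 higher and 2 lower, fatty acid genes 4 higher and 0 lower, and insulin, IGF1 and myostatin genes 0 higher and 4 lower. Of all probe sets, 0.336% were called higher and 0.516% lower.

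Markers of other cells had 0 or 1 called member in each list, again too few to set against the share of all probe sets. Of 21 endothelial markers, Thbd (thrombomodulin, an anticoagulant receptor) fell by 0.65 (SE 0.10, limma adjusted p = 0.000678). Of 14 smooth muscle and pericyte markers, the potassium channel gene Kcnj8 rose by 0.52 ± 0.11 (limma adjusted p = 0.00797), and with single arrays left out it passed only without vehicle 2 h replicate 11 (0.45 to 0.58 over all single leave-outs). Kcnj8 was at 0.41 and did not pass without the 3 widest arrays. Of 29 matrix and fibroblast markers, elastin (Eln) fell by 0.62 (SE 0.13, limma adjusted p = 0.0094) and, with single arrays left out, passed only without vehicle 2 h replicate 11 or 8 h replicate 1 (-0.72 to -0.55). Neither Kcnj8 nor Eln passed with a trended and robust spread (limma adjusted p = 0.0164 and 0.0153). The matrix markers had a median of -0.124, a positive difference in 3 of 29, and a mean that overlapped between the groups, from 0.0332 to 0.597 at 2 h and from 0.0331 to 0.252 at 8 h. Macrophage markers (17 measured, median -0.147, a positive difference in 1), neutrophil markers (18), T, B and NK cell markers (15), nerve markers (14) and red cell and platelet markers (7) had 0 called. Their part in the results on other genes was not tested. No call was made either among 28 NF-kB and cytokine response genes (median 0.013), 20 interferon genes or 15 myokine genes. Of the 22 STAT3 and acute phase genes, Pim1 was called, as given above.

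The remaining large changes fell in no shared list. The RNA-binding zinc finger gene Zc3h6 rose by 0.99 ± 0.18 and by 0.66 ± 0.10 on a second probe set, and the neutral cholesterol ester hydrolase Nceh1 rose by 0.94 ± 0.18, though not without any of 5 single arrays (vehicle 2 h replicates 7 and 9 and vehicle 8 h replicates 9, 17 and 21, 0.83 to 1.04 over all single leave-outs). The monooxygenase Fmo2 (0.77 ± 0.13), the matrix protease Adamts1 (0.76 ± 0.11), the kinase Stk35 (0.72 ± 0.08) and the glutathione transferase Gstt2 (0.69 ± 0.12) rose as well. Mid1ip1, a partner of the lipid synthesis regulator Thrsp, rose by 0.69 ± 0.13, with 8 h replicate 9 (-0.11) among the 2 h arrays, and lost its call without 2 h replicate 1 or 5 or 8 h replicate 13, 17 or 21 (0.57 to 0.85) or with a trended and robust spread (limma adjusted p = 0.0135). Among those that fell were the ubiquitin ligase subunit Wsb1 (-0.79 ± 0.13), the matrix protein Spon2 (-0.71 ± 0.12) and the dynein light chain Dynll1 (-0.70 ± 0.10).

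The IL-1b arrays at 2 h and 8 h were taken at the same times after injection. They share no array with the vehicle comparison, so their differences come from other samples, labelled as given the cytokine. There, 704 probe sets passed (3.95%), 282 higher (1.58%) and 422 lower (2.37%). Of the 152 called in vehicle, 141 had the same sign in IL-1b (92.8%, against 52.9% of all probe sets) and 74 were called in the same direction. Those 74 are 48.7% of the vehicle calls and 10.5% of the IL-1b calls. Both sets of calls used the same estimate of spread for each probe set, from the fit to all arrays. A probe set of small spread is favoured in both, so this overlap in calls is no independent result. Dapk1 and Wbp1l, named after their values were seen, were called in opposite directions, with differences of -0.49 and -0.52 in vehicle and of 0.69 and 0.41 in IL-1b. Without the array labelled IL-1b 2 h replicate 2, 665 probe sets passed in IL-1b, 138 of the 152 had the same sign, 73 were called in the same direction and 1 in the opposite one, the call of Wbp1l in IL-1b being lost (0.39, limma adjusted p = 0.018).

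Arntl, Npas2, Dbp, Per3 and Cry2 also changed in the same direction under IL-1b. Arntl differed by -1.28 ± 0.18 there, with values from 0.68 to 1.13 at 2 h and of -0.37, -0.41 and -0.08 at 8 h, and the difference between the 2 changes was 0.14 ± 0.24. Dbp rose by 1.22 ± 0.22 (difference between changes -0.24 ± 0.29), Per3 by 0.84 ± 0.13 (-0.23 ± 0.18), Cry2 by 1.09 ± 0.11 (0.41 ± 0.14) and Npas2 fell by 0.93 (0.14 ± 0.19). None of these differences passed, which does not show that the changes were equal. The change of Nfil3 was the smaller in IL-1b (-0.74 ± 0.17), and the difference of 0.80 ± 0.22 did not pass (limma adjusted p = 0.0815). Acot2 rose by 1.18 ± 0.18, Cpt1a by 0.81 ± 0.10 and Ucp3 by 1.69 ± 0.19, and Slc25a25 fell by 1.53 (SE 0.23). Other genes called in vehicle did not pass in IL-1b. Among them were Klf4 (-0.12), Slc38a2 (-0.10), Thbd (-0.09), Nceh1 (0.17), Gadd45b (0.27), Pim1 (-0.32) and Zc3h6 (0.35). Nr4a2 (-0.88, limma adjusted p = 0.012), Nr1d2 (0.31, limma adjusted p = 0.0298) and Myod1 (-0.32, limma adjusted p = 0.181) did not pass there either. For these genes the difference between the changes did not pass. Without the array labelled IL-1b 2 h replicate 2, the IL-1b changes were -1.36 for Arntl, 1.31 for Dbp, 0.90 for Per3, 1.11 for Cry2, -0.95 for Npas2 and 1.08 for Acot2, all past the threshold, and -0.70 for Nfil3, which no longer passed (limma adjusted p = 0.0137). Cpt1a (0.82), Ucp3 (1.67) and Slc25a25 (-1.46) also passed in IL-1b without that array.

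The difference between the changes was itself tested, and 94 probe sets passed (0.527%), 13 of them among the 152. Without the array labelled IL-1b 2 h replicate 2, 98 passed, 11 of them among the 152. Ppp1r3c was 1 of the 13. Its fall in vehicle had no counterpart past the threshold in IL-1b, where it differed by 0.11 ± 0.16, with values from 0.00 to 0.25 at 2 h and of 0.05, 0.44 and 0.28 at 8 h (difference between changes 1.45 ± 0.22, limma adjusted p = 0.000436). Bhlhe41 rose in vehicle and differed by -0.28 ± 0.14 in IL-1b (difference -0.92 ± 0.19, limma adjusted p = 0.00953). Its IL-1b 2 h mean was raised by the array labelled replicate 2 (0.52, against -0.34 to -0.22 on the other 4), and without that array the IL-1b change was -0.12 and the difference -0.76 (limma adjusted p = 0.00339). With each of 18 single arrays left out, the difference for Bhlhe41 passed in 5 (-1.01 to -0.76). Slc43a1 rose in both and by more in IL-1b (1.93 ± 0.15 against 0.61, difference 1.32 ± 0.20, limma adjusted p = 0.000436). Fkbp5, Foxo1, Foxo3 and Klf15 did not pass in vehicle and rose in IL-1b, by 1.06, 0.76, 0.71 and 1.04, and their differences between changes passed, from 0.80 to 1.79. Without the array labelled IL-1b 2 h replicate 2, their differences were 1.70, 0.94, 0.81 and 1.01. The difference of Klf15 then no longer passed (limma adjusted p = 0.0128). Those of Ppp1r3c (1.47) and Slc43a1 (1.20) still passed without that array. That of Klf15 passed in 5 of 18 single leave-outs (0.91 to 1.16) and that of Foxo3 in 17 (0.69 to 0.89), the exception being IL-1b 8 h replicate 22. The count of 94 was sensitive to scaling, and 12 passed after a further quantile normalization. The differences of Ppp1r3c (1.05, limma adjusted p = 0.0122), Slc43a1 (0.88), Bhlhe41 (-0.93), Fkbp5 (1.25), Foxo1 (0.70), Foxo3 (0.64) and Klf15 (0.76) were then not past the threshold. Without the 3 widest arrays those of Slc43a1 and Foxo1 passed and those of Ppp1r3c (1.33, limma adjusted p = 0.0103), Bhlhe41, Fkbp5, Foxo3 and Klf15 did not.

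**Figure D4:**
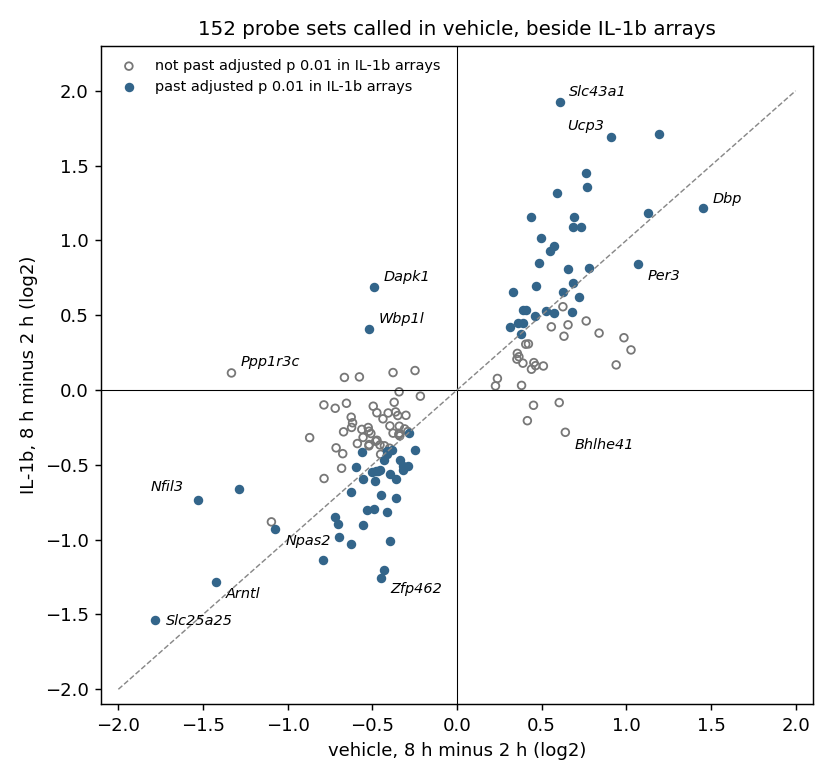
Change from 2 h to 8 h in vehicle muscle (horizontal axis, log2) against the same change in IL-1b muscle (vertical axis, log2) for the probe sets called in vehicle. Dbp, Per3, Arntl and Slc25a25 lie near the line of equal change, while Ppp1r3c sits at -1.33 in vehicle and 0.11 in IL-1b.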

How the data were processed

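Per the submitters' processing notes, the authors used RMA (robust multi-array average) and the build mm9. The sources used here do not give its software or version. Across the 28 arrays, the deposited log2 values have a median of 0 for each of 17831 probe sets within 1e-06, with extremes of -2.317 and 3.533. No source states the log base, and log2, which RMA returns, was assumed. Signal over background cannot be read from centred values, and the number of arrays limits the precision.

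Groups and replicate numbers came from the sample titles. A linear model with 6 groups was fitted to all 28 arrays with limma 3.58.1 in R 4.3.3 (degrees of freedom: 22 residual, 3.95 prior). Contrasts were 8 h minus 2 h in vehicle, the same in IL-1b, and the difference of these changes. Adjusted p-values are Benjamini-Hochberg over all probe sets, with a threshold of 0.01, the rate the design text names. The model was tested on simulated data first. Errors after ± are standard errors of the model.

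Probe sets were named from the platform annotation: 15620 had 1 gene symbol, 1370 several and 841 none listed. A gene with several probe sets was represented in lists by the lowest probe set number. Named genes are the 15 largest rises and falls called, up to 6 called members of each list, the 5 largest changes each way in the other comparisons, and a panel of 43 genes, of which Ciart, Trim63, Klf9 and Cebpd lacked a probe set with 1 symbol. Of the 36 lists' 892 entries, 758 were measured. The comparison, the members and the lists were chosen with earlier results of these data known.

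Vehicle at 2 h and 8 h shares 2 replicate numbers, whose arrays' deviations correlated at 0.378 and 0.0567, against -0.681 to 0.576 for other pairs, so the numbers were not taken to pair the samples. Alternatives were fits to fewer groups, further scaling, other estimates of spread, array weights, a filter, single arrays left out, the 3 widest arrays left out, a replicate block, other thresholds and 1 probe set a gene.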

Additional observations from a re-analysis of the deposited data

Results flagged for a closer look

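Among the named genes' values in vehicle at 2 h and at 8 h, 148 groups of 5 arrays were tested for a single distant array. Such an array was found in 5, and chance gives about 1 in 20 groups. Cdkn1a was at -1.797 on vehicle 8 h replicate 1, below the other 8 h arrays at -1.283 to -1.082. Npas2 was at -0.2833 on vehicle 8 h replicate 17, above the others at -0.5362 to -0.4844. Grb10 and Mstn were at -0.1895 and -0.8714 on vehicle 2 h replicate 7, below the others at 0.0936 to 0.2086 and at -0.0260 to 0.0324. Per1 was at -0.5785 on vehicle 8 h replicate 9, below the others at -0.0390 to 0.1536. Replicate 7 at 2 h and replicate 1 at 8 h are among the 3 arrays of widest spread.

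The change from 2 h to 8 h differed between IL-1b and vehicle, by limma's test of the difference, for 9 genes of the text. The change in IL-1b minus that in vehicle was 1.447 on the log2 scale for Ppp1r3c, 1.316 for Slc43a1 and -0.9225 for Bhlhe41. It was 1.787 for Fkbp5, 1.051 for Klf15, 0.9911 for Foxo1 and 0.8018 for Foxo3, none of which passed in vehicle. For Dapk1 and Wbp1l it was 1.179 and 0.9286. After a further quantile normalization only these last genes still passed. The difference of Klf15 also did not pass without the array labelled IL-1b 2 h replicate 2 (1.009, limma adjusted p = 0.0128).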

How the results depend on the processing

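The 152 calls in vehicle became 19 in a fit to these 10 arrays (1291 probe sets at an unadjusted p under 0.05), 56 with the 3 vehicle groups, 276 with array weights, 331 at an adjusted p under 0.05, 17 at 1.75-fold or more, 19 by one-way analysis of variance over the 6 groups with 1.75-fold, and 79 to 169 without single arrays. They were 88 without vehicle 2 h replicate 1, 98 without 2 h replicate 9, 94 without 8 h replicate 17 and 79 without 8 h replicate 21. The 704 calls in IL-1b became 316 in a fit to those groups, 1903 with array weights, 389 among the more variable probe sets alone, 1397 at 0.05, 132 at 1.75-fold and 499 to 665 without single arrays. The 94 differences became 25 in a fit to the 4 groups, 12 after quantile normalization, 47 with a trended and robust spread, 192 with array weights, 56 among the more variable probe sets alone, 33 without the 3 widest arrays, 221 at 0.05, 49 at 1.75-fold and 44 to 102 without single arrays. Fewer arrays or probe sets enter some of these fits, and for the rest the cause was not tested. Array weights were estimated gene by gene, because the default method did not converge, and the trend in spread was drawn on centred means, which carry no level.

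With a replicate block, which pairs arrays by a shared number only, 194 probe sets passed in vehicle (consensus correlation 0.135), 730 in IL-1b and 106 differed, and no named gene lost its call. Of the 48 called genes that the naming rule took, 32 kept the call without each single array, 46 after quantile normalization, 42 without the 3 widest arrays, 38 with a trended and robust spread and 12 in the fit to the 10 arrays, and 0 changed sign under any setting run. Genes that lost the call in the fit to the 10 arrays included Dbp, Cry2, Tef, Nr1d2, Bhlhe41, Tspan4, Myod1, Nr4a2, Pim1, Gadd45b, Ucp3, Zc3h6, Wsb1, Spon2 and Fmo2. Of those named here, all but Dbp, Cry2, Bhlhe41 and Tspan4 also lost it with the 3 vehicle groups.

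Signs turned only in genes that did not pass. Rorb was at 0.0036 after quantile normalization and -0.0532 to 0.0052 without single arrays. Timeless was at -0.0526 without the 3 widest arrays and -0.0953 to 0.0901 without single arrays. Klf15 was at 0.0245 after quantile normalization, 0.0042 with array weights, 0.0386 without the 3 widest arrays, 0.0018 with the block and -0.1213 to 0.0672 without single arrays. Foxo3 and Myc reached -0.1446 to 0.0026 and -0.0025 to 0.2018 without single arrays.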

Other observations

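The genes of this section were chosen after their values were seen. They are single genes and stand for no group. Slc25a42, the carrier that brings coenzyme A into mitochondria, rose by 0.44 ± 0.06 (limma adjusted p = 6.51e-05), from between -0.25 and 0.01 at 2 h to between 0.25 and 0.42 at 8 h. Pank1, the kinase of the first step of coenzyme A synthesis, rose by 0.40 ± 0.07 (limma adjusted p = 0.0019), and both kept the call without each single array. Esrrg, a nuclear receptor of oxidative muscle fibres, rose by 0.60 ± 0.10 (limma adjusted p = 0.00108), and no single array ended its call. From 2 h to 8 h in IL-1b, Pank1 rose by 0.53 (limma adjusted p = 0.000104). Slc25a42 (0.14, limma adjusted p = 0.254) and Esrrg (-0.08, limma adjusted p = 0.734) did not pass there.

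Dyrk2, a kinase that regulates protein decay, had groups that lay far apart for their spread. It lay between 0.45 and 0.67 at 2 h and between -0.13 and -0.07 at 8 h, and it fell by 0.63 (SE 0.07, limma adjusted p = 4.47e-06). Dnmt3a, a DNA methyltransferase, fell by 0.41 (SE 0.07, limma adjusted p = 0.000983), also without each single array. Ptch1, the receptor that Hedgehog ligands bind, rose by 0.47 ± 0.07 (limma adjusted p = 0.000297) and kept its call without each single array. The BMP receptor gene Acvr1 fell by 0.36 (SE 0.06, limma adjusted p = 0.00207), but did not pass without 8 h replicate 17 or 21 (-0.40 to -0.33).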
